A study of Rattus norvegicus with 36 samples.

Results

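The nucleus accumbens (NAc) of rats that preferred risk was compared with the NAc of rats that avoided it. The comparison holds the 18 NAc libraries of the 36 in the series, taken by their tissue label, with 9 labelled risk-seeking and 9 labelled risk-averse. All came from rats of 1 strain, Sprague Dawley (written "Sparague Dawley" in the labels), and each NAc library came from a different animal. The rats had learned the rat gambling task, in which touch-screen light signals stand for options with their own odds and sizes of reward and punishment, and they were sorted by their settled choices. No drug, transgene or lesion is given for either group, and both had been trained. The labels do not state age or sex. The labels give no score of preference, so the 2 classes are all that the samples carry.

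The NAc is the ventral part of the striatum. Most of its neurons are GABA-releasing spiny projection neurons, which receive dopamine from the midbrain and glutamate from cortex, hippocampus and amygdala. It is known for its part in reward and motivated choice. The libraries are bulk tissue, so fewer cells of a type and less RNA per cell cannot be told apart. The deposited counts name genes by Ensembl identifier alone, and no identifier could be paired with a symbol (0 of 32623), so the tissue label could not be checked against marker genes and the genes below carry no function. At most 2 identifiers in each direction are named for each comparison, those with the smallest p.

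No gene passed the test of risk preference in NAc. Of 15418 genes tested, 0 (0%) reached an adjusted p under 0.05 in edgeR's quasi-likelihood test with Benjamini-Hochberg adjustment. The lowest adjusted p was 0.0974, which 135 genes shared. At the looser threshold of 0.10 there were 278 genes (1.80%), 145 higher and 133 lower in risk-seeking animals. An unadjusted p under 0.05 was found for 2748 genes (17.8%), 1411 higher (9.15%) and 1337 lower (8.67%), so neither direction dominated. DESeq2, which gave an adjusted p for 11802 genes, called 543 of them (4.60%), 310 higher and 233 lower. limma-voom called 0, with 2677 genes at an unadjusted p under 0.05.

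The measured differences were small. Over all genes the median absolute log2 fold change was 0.09, with a median standard error of 0.08. Among the 278 genes under the looser threshold it was 0.24 (interquartile range 0.21 to 0.28), 11 of them reached 1.5-fold and 2 reached 2-fold. The 95% interval of the fold change, taken for each gene alone, lay inside 1.5-fold either way for 13537 genes (87.8%) and inside 2-fold for 15091 (97.9%). For the 9993 genes with a mean of at least 10 CPM (a gene's counts scaled to a common library size), 98.7% of the intervals lay inside 1.5-fold. The precision was thus enough, for most genes at that level, to bound a preference difference below 1.5-fold.

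The gene of smallest p, ENSRNOG00000042886, was at 81.3 to 108.2 CPM with a median of 89.7 in the 9 risk-seeking libraries, and at 59.4 to 82.9 CPM with a median of 72.0 in the 9 risk-averse ones. The groups met at 1 animal each: risk-averse R9 lay above the lowest risk-seeking animal, BR4. The log2 fold change was 0.33 ± 0.06 (SE), with an edgeR adjusted p of 0.0974, so the gene did not pass. ENSRNOG00000000786 was at 15.6 to 17.7 CPM (median 16.7) in risk-seeking and 11.6 to 15.6 CPM (median 13.6) in risk-averse animals. Here too R9 alone among the risk-averse animals reached into the risk-seeking range. Its log2 fold change was 0.28 ± 0.06 (SE, edgeR adjusted p = 0.0974).

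Both leading genes in the other direction were scarce. ENSRNOG00000002511 was at 0.353 to 0.586 CPM (median 0.512) in risk-seeking and 0.518 to 1.45 CPM (median 1.01) in risk-averse animals. It rests on 12 to 43 counts per library. R9 was the lowest risk-averse animal and the only one inside the risk-seeking range, and B2 was the highest. The log2 fold change was -0.90 ± 0.18 (SE, edgeR adjusted p = 0.0974). ENSRNOG00000017277 was at 1.83 to 2.66 CPM (median 2.41) in risk-seeking and 2.25 to 5.30 CPM (median 3.62) in risk-averse animals, on 53 to 148 counts per library. In this gene the risk-averse animal inside the risk-seeking range was N7, and the log2 fold change was -0.73 ± 0.15 (SE, edgeR adjusted p = 0.0974). None of these 4 genes had groups without overlap, and 8 of all genes tested did (0.0519%).

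**Figure D1:**
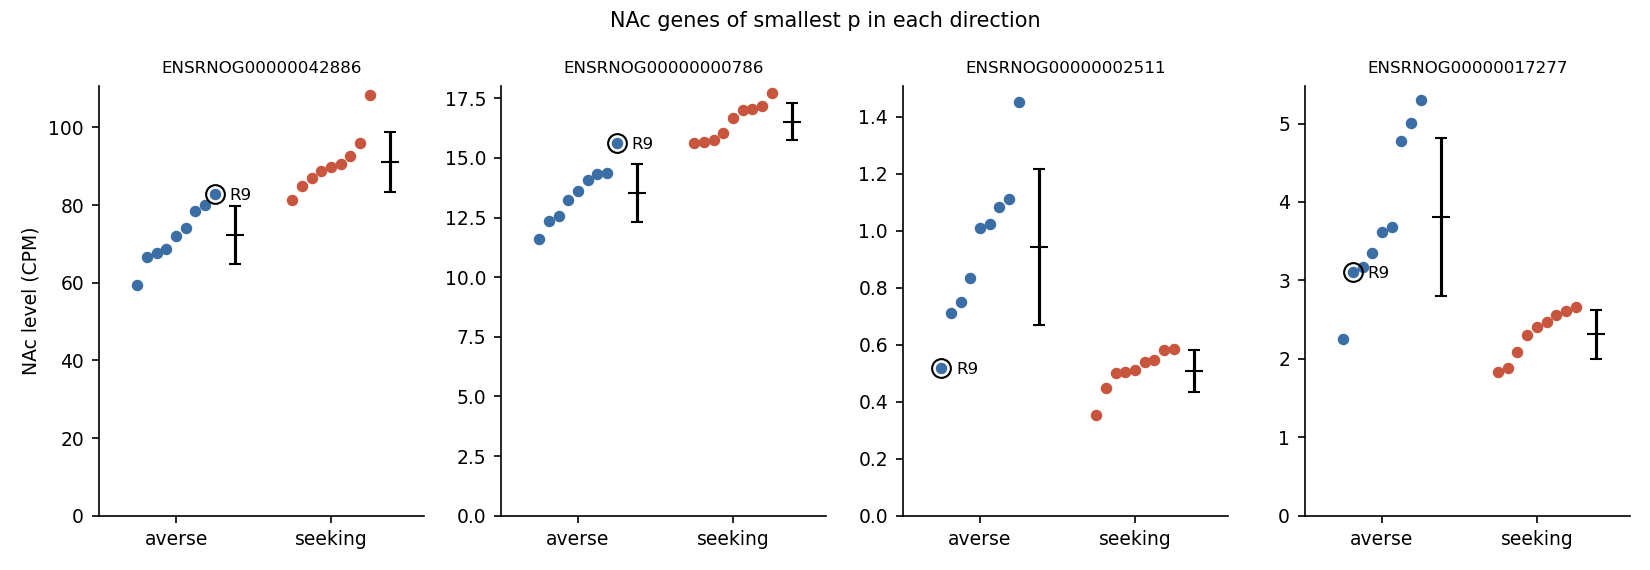
Level in CPM (y axis) of the NAc genes with the smallest p in each direction, by risk preference (x axis); each point is 1 library and the black mark and bar are the mean and SD of 9. The ringed risk-averse animal R9 is the risk-averse point nearest the risk-seeking range in 3 of the panels, and no panel shows groups that are fully apart.

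The same animals' prefrontal cortex (PFC) gives these genes a second measurement, which is not independent because 17 of 19 animals gave both regions. The PFC log2 fold change of ENSRNOG00000042886 was 0.44 ± 0.10, that of ENSRNOG00000000786 was 0.29 ± 0.09 and that of ENSRNOG00000017277 was -0.64 ± 0.17 (SE). All 3 passed there (edgeR adjusted p = 0.00649, 0.0245 and 0.01095), where 3521 of 15128 genes (23.3%) did. The PFC test held preference alone. The share of read pairs in no annotated gene, taken up below, was highest in PFC in risk-averse B2 and B3 (29.1% and 26.8%) and lowest in risk-averse N6 (22.1%). ENSRNOG00000002511 did not pass in PFC (-0.19 ± 0.23, edgeR adjusted p = 0.580). Its PFC level was 0.878 to 1.67 CPM in risk-seeking and 0.683 to 2.64 CPM in risk-averse animals, so the PFC risk-seeking range lay inside the risk-averse one. The difference between regions was tested as an interaction, in a fit with no term for the animal. None of the 4 genes passed (lowest edgeR adjusted p = 0.981).

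Over all genes the interaction of preference and region called 0 of 15936 (0%) in edgeR, with 387 at an unadjusted p under 0.05, so no gene's NAc difference was shown to depart from its PFC difference. The edgeR fit treated the regions of an animal as independent, although their deviations from group means correlated at 0.138 to 0.494. Its p-values for a difference between regions therefore tend to be too large. limma-voom with the animal as a random effect called 0 as well, with 1422 genes at an unadjusted p under 0.05 and a lowest adjusted p of 0.199. No gene's NAc difference was thus shown to depart from its PFC difference in any of these fits. In the fit without the animal the gene of smallest p was ENSRNOG00000030763. It was at 0.104 to 0.468 CPM in risk-seeking and 0.204 to 0.712 CPM in risk-averse NAc, on 3 to 24 counts per library. It was too scarce to enter the NAc test with all 18 libraries. ENSRNOG00000052981 was at 0.273 to 0.705 CPM in risk-seeking and 0.556 to 0.890 CPM in risk-averse NAc, while in PFC the order of the medians was the other way, 1.03 against 0.683 CPM. This gene was scarce too, on 7 to 30 counts per NAc library and 14 to 77 per PFC library. Its log2 fold changes were -0.64 ± 0.18 in NAc and 0.62 ± 0.24 in PFC (SE). Neither passed (edgeR adjusted p = 0.103 and 0.0588). Their difference of -1.26 ± 0.30 did not pass either (edgeR adjusted p = 0.981, and 0.199 in limma-voom with the animal). ENSRNOG00000052051, far more abundant in NAc than in PFC, was at 23.8 to 36.8 CPM in risk-seeking and 21.4 to 32.4 CPM in risk-averse NAc (log2 fold change 0.08 ± 0.08, SE). ENSRNOG00000046330 was at 29.2 to 33.6 and 27.8 to 35.7 CPM in NAc (0.02 ± 0.05). In both of these genes the NAc groups overlapped widely, while both were lower in risk-seeking PFC. The PFC log2 fold change was -0.37 ± 0.12 in ENSRNOG00000052051 and -0.20 ± 0.05 in ENSRNOG00000046330 (SE, edgeR adjusted p = 0.0337 and 0.00795). ENSRNOG00000052051 was scarce in PFC, at 1.51 to 2.15 CPM in risk-seeking and 1.93 to 3.55 CPM in risk-averse animals. It rests there on 35 to 88 counts per library. The 3.55 CPM came from BR9 alone, against at most 2.56 CPM in the other risk-averse animals. The differences between regions of 0.44 ± 0.14 and 0.22 ± 0.07 did not pass (edgeR adjusted p = 0.981 each).

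Genes that mark NAc against PFC gave few small p-values. A total of 429 genes were at least 4-fold higher in NAc (mean of log2 CPM, at least 1 CPM in either region), a grouping that uses the regions and not preference. Of them 25 had an unadjusted p under 0.05 for preference, 7 higher and 18 lower, or 5.83% against the 17.8% of all genes tested. None of the 429 was under the looser threshold of 0.10. Their median log2 fold change was 0.01. The 251 genes at least 4-fold higher in PFC gave 16 (6.37%), 5 higher and 11 lower, with a median of -0.05. The region-marking groups were also scarcer, with medians of 9.31 and 3.77 CPM against 21.6 for all genes, and their standard errors were larger, with medians of 0.13 and 0.18 against 0.08. Whether this accounts for the lower share was not tested.

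Small p-values were most frequent among abundant genes. In the lowest quartile of mean level (0.320 to 4.80 CPM) 7.96% of 3855 genes had an unadjusted p under 0.05, 82 higher and 225 lower. In the highest quartile (62.0 to 5528 CPM) the share was 24.6%, 530 higher and 419 lower. The median standard error fell from 0.18 in the lowest to 0.06 in the highest quartile, and the median absolute log2 fold change was 0.14 and 0.07. In the scarce genes the median measured difference was thus below the median error, 0.14 against 0.18, and in the abundant genes above it, 0.07 against 0.06. The larger value in the scarce genes does not show that they differed more between the groups.

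Of 6 read measures, 1 differed between the groups past its test, and it was not the unassigned share. Some uniquely aligned read pairs fell in no annotated gene, pairs within introns possibly among them, and their percentage is called the unassigned share here. In risk-averse NAc it was 32.96% in B2, 29.6% in B3, 28.5% in R7, 28.04% in BR9, 27.1% in R4, 26.4% in N7, 25.5% in BR2, 25.4% in R9 and 24.5% in N6. In risk-seeking NAc it was 27.9% in BR5, 26.7% in BR4, 26.0% in R1, 25.6% in B5, 25.3% in N1, 25.1% in N9, 24.97% in N3, and 24.9% in both B9 and R2. The 4 highest libraries were all risk-averse, but the lowest, N6, was risk-averse as well. The means were 27.6% ± 2.61 and 25.7% ± 1.02 (SD, n = 9 each), a difference that did not pass a two-sided exact permutation test over 48620 regroupings (p = 0.0535, adjusted p = 0.107 over 6 read measures).

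The ambiguous share, pairs that overlap more than 1 gene, was the read measure that passed. It was 0.701% to 0.779% with a median of 0.730% in risk-seeking and 0.626% to 0.756% with a median of 0.691% in risk-averse NAc (exact permutation p = 0.00321, adjusted p = 0.0193). R9 had the highest ambiguous share of the risk-averse animals (0.756%) and the highest not-unique share of all 18 (13.3%, against at most 13.05% in the risk-seeking group). Gene counts per library were 22976269 to 33390551 in risk-seeking and 18436025 to 33008504 in risk-averse NAc (exact permutation p = 0.162, adjusted p = 0.239). Genes with at least 1 count numbered 19645 to 20106 and 19497 to 20060 (adjusted p = 0.927, exact permutation).

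Over all animals and among the risk-averse ones, the unassigned share followed the animal. Across the 17 animals with both regions its NAc and PFC values correlated at r = 0.924 (rho = 0.814, permutation p = 9.9999e-06, the smallest that 100000 resamples can give, and 0.00019). Without the 2 animals farthest from the median r was 0.731 (permutation p = 0.00204). Among the 9 risk-averse animals r was 0.969 (exact permutation p = 1.65e-05). Among the 8 risk-seeking animals, whose shares span a narrow range, r was 0.403 and did not pass (exact permutation p = 0.319, adjusted p = 0.320 over 8 relations). Without the 2 farthest from the median of each group, r was 0.909 in risk-averse and -0.131 in risk-seeking animals (exact permutation p = 0.00119 and 0.806).

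**Figure D2:**
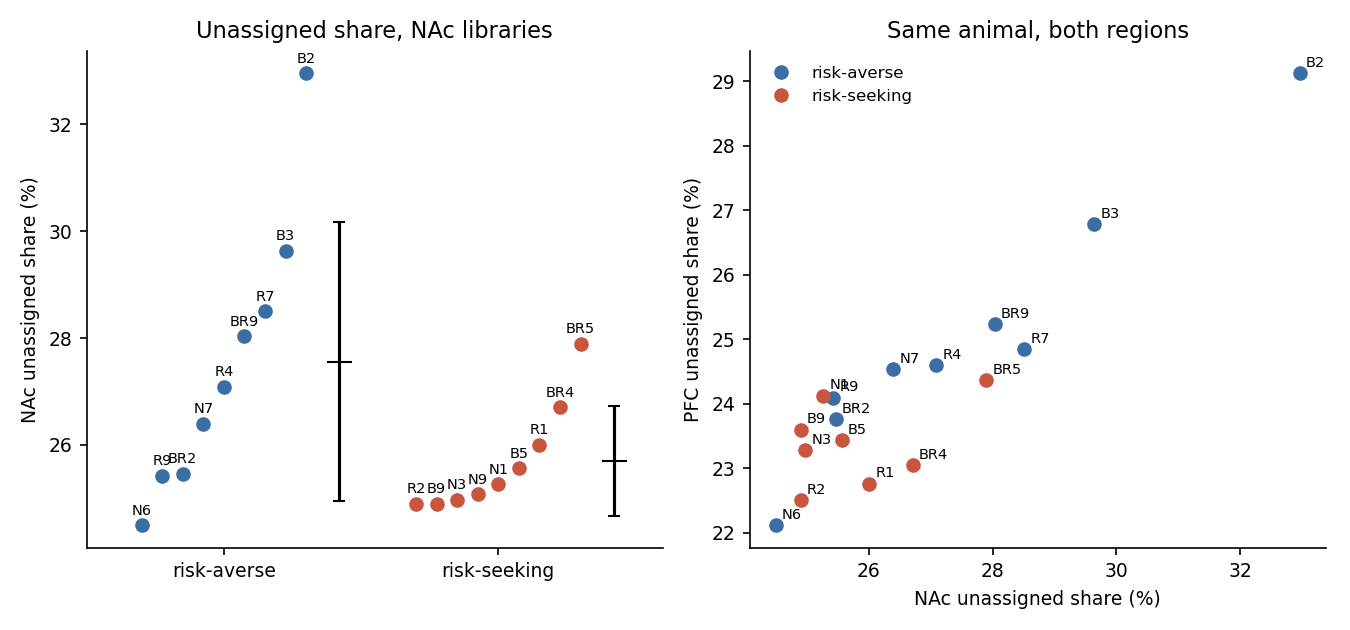
Left, unassigned share in percent (y axis) of each NAc library by risk preference, with mean and SD of 9 as black marks; right, NAc (x axis) against PFC (y axis) unassigned share in percent for the 17 animals with both regions. Risk-averse B2 and B3 are the highest in both regions, at 32.96% and 29.6% in NAc.

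The main axis of NAc expression followed the same share. The first principal component of log2 CPM held 19.05% of the variance, and its correlation with the unassigned share was r = 0.861 over the 18 libraries (rho = 0.796, permutation p = 3e-05 and 0.00025). It held within the risk-averse group (r = 0.905, exact permutation p = 0.000705, n = 9) and within the risk-seeking group (r = 0.716, exact permutation p = 0.0188, n = 9), and without the 2 libraries farthest from the median (r = 0.712, permutation p = 0.00212). All 5 of these first-component and both-region relations with p under 0.05 also had an adjusted p under 0.05 over the 8 computed (highest 0.0300, permutation). The component itself did not separate the preference groups (exact permutation p = 0.247, adjusted p = 0.247 over 3 components), and neither did the next pair of components (adjusted p = 0.151 each, exact permutation).

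**Figure D3:**
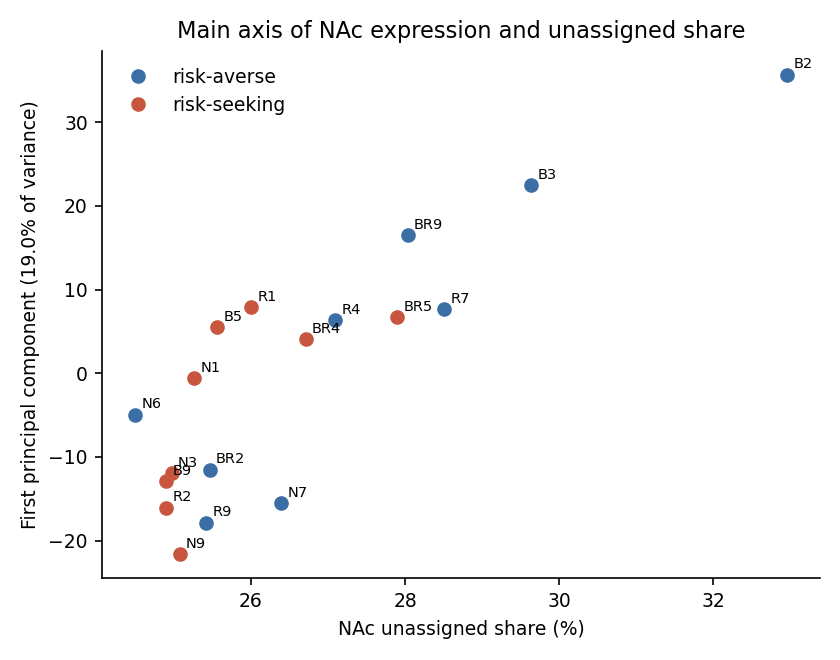
First principal component of NAc expression (y axis, arbitrary units) against unassigned share in percent (x axis) for the 18 NAc libraries, coloured by risk preference. Libraries of both groups lie along the same rising trend, with r = 0.861.

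Many genes followed the unassigned share within the preference groups. In a model that also held preference, 3986 of 15418 genes (25.9%) had a slope on the share at an adjusted p under 0.05 in edgeR, 2014 rising and 1972 falling with it. The median absolute slope of these genes was 0.06 on the log2 scale per percentage point, or 0.49 over the 8.46 points between the lowest and highest library. ENSRNOG00000031092 rose by 0.13 ± 0.01 per point (SE, edgeR adjusted p = 5.01e-07), from 81.95 CPM in N6 to 197.3 CPM in B2. ENSRNOG00000013589 rose by 0.21 ± 0.02 per point (edgeR adjusted p = 5.01e-07) and was at 42.05 CPM in B2, against 11.7 to 24.5 CPM in the other risk-averse and 10.9 to 19.3 CPM in the risk-seeking animals. Both genes were highest in B2, the library with the highest share.

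A pair of abundant genes led the other direction. ENSRNOG00000042271 had a slope of -0.11 ± 0.01 per point (SE, edgeR adjusted p = 7.16e-06). Its level was 725 CPM in B2, with a risk-averse median of 1166 and a risk-seeking range of 1089 to 1499 CPM. ENSRNOG00000014573 had a slope of -0.10 ± 0.01 per point (edgeR adjusted p = 7.25e-06), with 150.7 CPM in B2, a risk-averse median of 234 and a risk-seeking range of 230 to 310 CPM. The preference fold changes of all 4 genes did not pass in edgeR (lowest adjusted p = 0.220), and with the share in the model they were between 0.01 and 0.04 on the log2 scale.

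The direction of a gene's slope and of its preference difference went together in the full set of libraries. Of the 2014 genes rising with the unassigned share, 447 were lower and 2 higher in risk-seeking animals at an unadjusted p under 0.05, against 8.67% and 9.15% of all genes tested. Of the 1972 falling with it, 515 were higher and 19 lower. The median preference log2 fold change was -0.12 in the rising and 0.07 in the falling genes, and with the share in the model 0.04 and -0.02. Slope and preference fold change correlated at r = -0.386 across the 15418 genes, which are not independent replicates and share the same libraries. With the share in the model the sign was the opposite, r = 0.320. The mean share was 25.7% in risk-seeking and 27.6% in risk-averse animals and both quantities come from the same libraries, so a gene that follows the share has a preference difference of the opposite sign built into the unadjusted value, and neither r nor these counts is independent evidence. Without the 4 libraries of highest share (B2, B3, R7 and BR9, all risk-averse) 374 genes had a slope, 260 rising and 114 falling. Of the rising genes 6 (2.31%) had an unadjusted p under 0.05 for preference, 6 higher and 0 lower in risk-seeking animals. Of the falling genes 20 (17.5%) did, 0 higher and 20 lower. Over all 15666 genes 1543 did (9.85%), 667 higher and 876 lower, so only the falling genes exceeded that share. The median log2 fold changes were 0.05 in the rising and -0.10 in the falling genes, of the opposite sign to those over all libraries. These 374 genes were picked anew by their slope in the same remaining libraries that gave their preference values. Of them 342 were among the genes called over all libraries, so the sets are much smaller than the earlier ones. The counts and the change of sign are thus not independent evidence either.

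**Figure D4:**
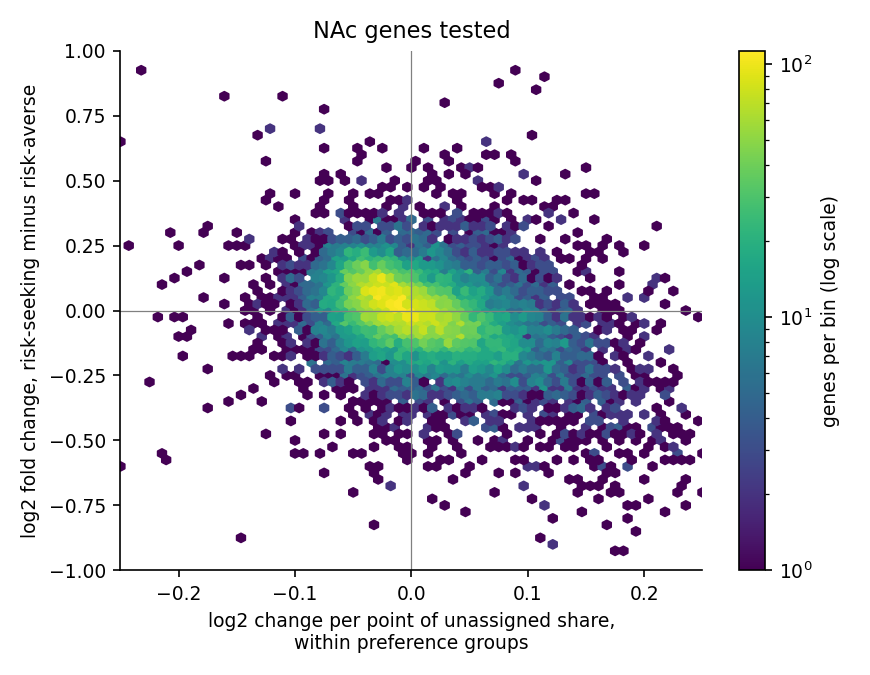
Log2 fold change of risk-seeking minus risk-averse NAc (y axis) against the log2 change per percentage point of unassigned share within preference groups (x axis); colour gives the number of genes per bin on a log scale, and 39 of 15418 genes fall outside the axes. The cloud tilts downwards, with r = -0.386 across genes over all 18 libraries; with the share in the preference model r is 0.320.

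With the unassigned share in the model the preference test also called 0 genes in edgeR, with 2002 at an unadjusted p under 0.05 and a lowest adjusted p of 0.171. The 4 leading genes kept their direction. ENSRNOG00000042886 had a log2 fold change of 0.29 ± 0.07 and ENSRNOG00000000786 one of 0.24 ± 0.06 (SE). On the lower side ENSRNOG00000002511 was at -0.66 ± 0.16 and ENSRNOG00000017277 at -0.52 ± 0.13, and the edgeR adjusted p was 0.171 for all 4. The higher pair was smaller still with the other read shares. With the ambiguous share in the model ENSRNOG00000042886 was at 0.14 and ENSRNOG00000000786 at 0.15, from 0.33 and 0.28 without it, while ENSRNOG00000002511 was at -0.63 and ENSRNOG00000017277 at -0.59 (edgeR adjusted p = 0.9997 each). With the not-unique share the higher pair was at 0.23 and 0.20 and the lower pair at -0.66 and -0.52, all with an edgeR adjusted p of 0.923. Genes at an unadjusted p under 0.05 numbered 289 with the ambiguous and 817 with the not-unique share. The ambiguous share itself differed between the groups (exact permutation adjusted p = 0.0193), so its model cannot tell that share and preference apart. Whether a read measure accounts for the smaller fold changes was not tested. Of the 4 leading genes, ENSRNOG00000002511 and ENSRNOG00000017277 had a slope on the unassigned share that passed (0.12 and 0.10 per point, edgeR adjusted p = 0.0181 and 0.0192).

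In edgeR at an adjusted p under 0.05, the count of calls turned on a single risk-averse library. Without R9, 944 of 15486 genes (6.10%) passed in edgeR, 543 higher and 401 lower in risk-seeking animals, and leaving out any other single library gave 0. The 4 leading genes all passed without it, each with an edgeR adjusted p of 0.0152. They were picked for their small p in these same libraries, and in most of them R9 was the risk-averse animal inside the risk-seeking range. Their calls without R9 are thus not independent support. Their log2 fold changes became 0.35 in ENSRNOG00000042886 and 0.31 in ENSRNOG00000000786, and -0.98 in ENSRNOG00000002511 and -0.76 in ENSRNOG00000017277. Of the 944 genes, 504 were also among the 543 that DESeq2 called with R9 included, which is 53.4% of the first list and 92.8% of the second. The lists share every library but R9, so neither is independent of the other. Without R9 and with the unassigned share in the model, a setting chosen after the data were seen, 206 genes passed, 36 higher and 170 lower. There ENSRNOG00000017277 lost its call (-0.53, edgeR adjusted p = 0.0679) and the other 3 leading genes kept theirs (highest edgeR adjusted p = 0.0359).

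Over all genes R9 was the library least often near its own group. Each library was set against the medians of the remaining animals of its own and of the other group. R9 was nearer to its own group's median in 32.4% of all genes tested. Among the other 17 libraries this share was 39.7% in risk-averse BR2 and 48.4% to 67.7% in the rest, where R7 was the highest. R9 was kept in the group its labels give.

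**Figure D5:**
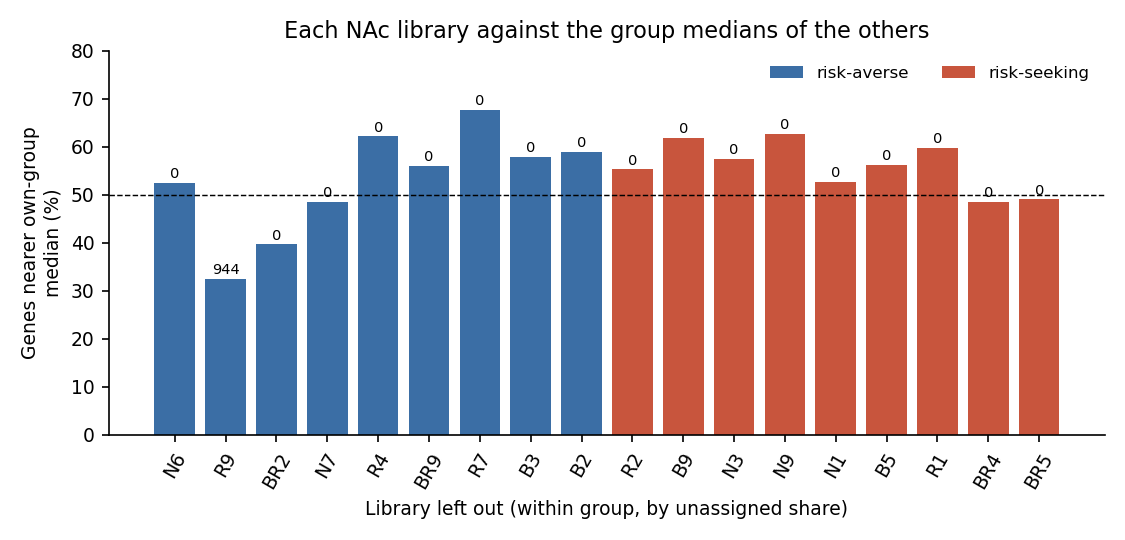
Share of genes in percent (y axis) in which each NAc library lay nearer to the median of its own group than to that of the other, with the library itself left out of its median; libraries (x axis) are ordered by unassigned share within group, the number above a bar is the count of genes called without that library, and the dashed line marks 50%. R9 has the lowest share, 32.4%, and is the 1 library whose removal gives calls.

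The risk-averse group was the more variable. The SD of log2 CPM was larger in risk-averse than in risk-seeking animals for 10534 of 15418 genes (68.3%), with medians of 0.18 and 0.15, and the common biological coefficient of variation was 0.140 and 0.119. Risk-averse B2 held the highest or lowest value of the 18 libraries in 29.4% of genes and B3 in 20.4%, followed by risk-seeking N9 and R1 at 17.4% each. BR4, in the risk-seeking group, did so in 3.76%. The pair of libraries with the highest unassigned share was thus also the most often extreme. B3 also had the fewest gene counts of the 18 libraries (18436025). Whether depth or the unassigned share accounts for the extremes was not tested, and the SDs were not computed without B2 and B3.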

How the data were processed

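Total RNA of NAc tissue was made into TruSeq RNA version 2 libraries and sequenced as 101-bp paired-end reads, per the labels' protocols. Per the submitters' processing notes, the builds were Rnor_6.0 and rn6 and the tools edgeR, HTSeq 0.9.0, STAR 2.5.3a and Trimmomatic. Annotation release and strand setting were not given in the sources used here, which leaves overlapping, antisense and near-identical genes uncertain. Each deposited file holds raw counts for every gene identifier of 1 library, not normalised. The 5 HTSeq summary categories stayed out of library sizes and tests and gave the read shares.

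Groups follow the labels for tissue and preference. Members, lists and tests were chosen with earlier results of these data known. The quasi-likelihood test of edgeR 4.0.16 in R 4.3.3 (TMM factors, glmQLFit with robust=TRUE) was run on the genes that filterByExpr kept. Standard errors came from dividing the size of the log2 fold change by the root of its F statistic, and intervals are 95%. TMM factors over all 36 libraries scaled the printed CPM; 2 was the prior count for log2 CPM. DESeq2 1.42.0 and limma 3.58.1 were alternatives. The genes named are the 2 smallest p in each direction, the fallback of the rule where no symbols can be attached. Marker and pathway lists, marker covariates and gene length were not analysed here for that reason. Chi-square per degree of freedom was 6.74 to 42.2 over the 72 pairs of libraries within NAc groups, and no repeated library was found among them. Titles pair the regions of 17 animals, whose deviations from group means correlated at 0.138 to 0.494. The tests were checked on simulated counts.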

Additional observations from a re-analysis of the deposited data

Results flagged for a closer look

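Of 68 groups of 9 libraries examined for a library far from the others, 5 had one, where about 3.4 would arise by chance. BR4 had 12.4% of alignments not unique in risk-seeking NAc, against 12.7% to 13.05% in the others. B2 was the far library in 3 of the 5. ENSRNOG00000031092 was at 197.3 CPM in its NAc, against 81.95 to 128.6 CPM in the other risk-averse animals. ENSRNOG00000013589 was at 42.05 CPM in its NAc, against 11.7 to 24.5 CPM, and at 58.3 CPM in its PFC, against 29.7 to 36.5 CPM. Both genes were named for their slope on the unassigned share, which B2 leads. ENSRNOG00000052051 was at 3.55 CPM in the PFC of risk-averse BR9, against 1.93 to 2.56 CPM.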

How the results depend on the processing

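The NAc preference count was 0 with limma-voom, library weights, RLE factors, library totals alone, no filter on counts, a minimum mean of 1 CPM, robust=FALSE, title code letters, each of the 3 read shares as a covariate, all 36 libraries in 1 fit and without the 4 libraries of highest unassigned share. It was 543 with DESeq2, 278 at an adjusted p under 0.10, 206 without R9 and with the unassigned share as a covariate (added after the data were seen), and 0 to 944 with 1 library left out.

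The slope count was 3986 with all libraries, 374 without the 4 of highest share and 3288 to 4055 with 1 library left out; without B2 it was 3786, which held 63.7% of the 3986. ENSRNOG00000014573 lost its slope call without the 4 libraries (-0.10 per point, edgeR adjusted p = 0.0537). With the animal as a replicate block the interaction count stayed at 0, and 1770 genes had an unadjusted p under 0.05.

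With 1 library left out, the difference of risk-seeking minus risk-averse means was -2.24 to -1.18 points for the unassigned share (passing without N6, exact permutation adjusted p = 0.0478), 0.043 to 0.059 for the ambiguous and 0.265 to 0.426 for the not-unique share (passing without R9, exact permutation adjusted p = 0.00864). Detected genes differed by -32.1 to 38.25, turning sign without 8 of the libraries one at a time. The marker lists and marker covariates were not run.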
